A study of Mus musculus with 6 samples.

Results

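Granzymes are serine proteases stored in the cytotoxic granules of natural killer (NK) cells and cytotoxic T cells, and 5 of their genes, Gzma, Gzmb, Gzmc, Gzmd and Gzmf, are described here in the mouse uterus shortly before implantation. They were chosen by name, as every probe set whose annotation gives one of these symbols, which found 7 of the 1382 probe sets of the deposited table. Of these 7, 6 carried a single gene symbol and 1 carried both Gzme and Gzmd. RNA came from uteri of female mice at 3.5 days post coitum and was measured on Affymetrix arrays, 3 from Stat3 d/d mice and 3 from Stat3 f/f mice. Stat3 f/f mice carry floxed alleles of Stat3, a transcription factor activated by cytokines, and Stat3 d/d mice carry the deleted alleles. The labels do not give the driver of the deletion, the strain or the age, so which uterine cells carry it cannot be read from them, nor whether embryos were left in the uteri. Values are RMA intensities on a linear scale, RMA being a background correction, normalization and summary of the probes of each probe set.

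When a killer cell meets its target, perforin opens the way for granzymes into the target cell, where they cleave proteins and start cell death. Granzyme A, a protease that cuts after basic residues, and granzyme B, which cuts after aspartate and can activate caspases, are used by cytotoxic lymphocytes in most tissues. Granzymes C, D and F belong to a rodent expansion of the granzyme B gene cluster, and in mice they are known from activated killer cells and from the granulated NK cells of the pregnant uterus. Uterine NK cells gather and mature as the decidua forms after implantation, a stage later than the one sampled here.

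The genes lie at 2 places in the genome. Gzma is on chromosome 13, while the order on chromosome 14 in RefSeq (assembly GRCm38.p6) runs Gzme, Gzmd, Gzmg, Gzmn, Gzmf, Gzmc and Gzmb. Gzmg, Gzmn and the mast cell protease genes next to the cluster were not in the table. The RefSeq promoter table held all 5 genes, and the 250 bases before each transcript start are shown because the cluster members share much of this sequence. All are on the minus strand and read 5′ to 3′: Gzma at chr13:113100982-113101231, Gzmb at chr14:56262335-56262584, Gzmc at chr14:56234658-56234907, Gzmd at chr14:56132594-56132843 and Gzmf at chr14:56211408-56211657 (GRCm38.p6). Capitals mark matches to the motifs searched on both strands.
Gzma: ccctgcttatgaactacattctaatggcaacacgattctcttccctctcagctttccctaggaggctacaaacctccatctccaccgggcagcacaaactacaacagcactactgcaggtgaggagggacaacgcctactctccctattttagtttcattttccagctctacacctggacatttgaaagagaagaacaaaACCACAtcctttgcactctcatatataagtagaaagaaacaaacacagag
Gzmb: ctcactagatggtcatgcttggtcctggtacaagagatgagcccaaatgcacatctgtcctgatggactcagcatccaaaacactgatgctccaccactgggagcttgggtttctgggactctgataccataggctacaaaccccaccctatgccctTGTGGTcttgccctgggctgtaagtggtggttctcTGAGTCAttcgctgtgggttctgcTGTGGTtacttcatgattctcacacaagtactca
Gzmc: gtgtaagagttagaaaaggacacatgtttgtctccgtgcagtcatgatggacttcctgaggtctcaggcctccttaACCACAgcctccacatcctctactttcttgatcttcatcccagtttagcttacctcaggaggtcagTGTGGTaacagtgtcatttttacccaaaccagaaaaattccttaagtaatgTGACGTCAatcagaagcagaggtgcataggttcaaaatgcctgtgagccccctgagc
Gzmd: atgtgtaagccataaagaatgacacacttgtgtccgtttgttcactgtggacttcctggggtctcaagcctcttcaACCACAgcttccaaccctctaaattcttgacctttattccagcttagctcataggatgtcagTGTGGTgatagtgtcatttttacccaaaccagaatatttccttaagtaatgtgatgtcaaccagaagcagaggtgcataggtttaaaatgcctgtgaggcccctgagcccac
Gzmf: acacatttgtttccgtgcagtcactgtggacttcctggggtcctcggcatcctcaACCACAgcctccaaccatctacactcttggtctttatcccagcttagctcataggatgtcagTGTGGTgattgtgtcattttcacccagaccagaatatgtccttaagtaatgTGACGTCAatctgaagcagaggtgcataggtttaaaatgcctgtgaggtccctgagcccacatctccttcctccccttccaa

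In pairwise alignment the Gzmc, Gzmd and Gzmf windows were 84.4% to 88.2% identical over 225 to 244 aligned bases. The Gzmb window matched these 3 at 63.9% to 65.5% of 162 to 180 aligned bases, and the Gzma window matched the other 4 at 55.3% to 59.6% of 181 to 220 bases. A run of 20 bases, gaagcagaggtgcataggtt, stood in the Gzmc, Gzmd and Gzmf windows. Among 32851 promoter windows of the same length it occurred in 5, those of Gzmc, Gzmd, Gzme, Gzmf and Gzmg, and it was in neither the Gzmb nor the Gzma window. The core of Runx sites, TGTGGT, matched in all 5 granzyme windows and in 14% of all windows. The cyclic AMP response element TGACGTCA matched in Gzmc and Gzmf and in 1.55% of all windows, and the AP-1 motif TGANTCA in Gzmb and in 6.75%. The STAT motif TTCNNNGAA, found in 7.02% of all windows, and the T-box motif TCACACC, in 3.33%, had no match in the 5 windows. Because the Gzmc, Gzmd and Gzmf windows are so alike, their matches are not separate observations, and a match of letters is not evidence of a bound site.

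The table was selected on the very comparison studied. Each of its 1382 probe sets differs at least 1.5-fold between group means, and the 2 groups overlap in none of them. With limma and Benjamini-Hochberg adjustment over the table, all 1382 probe sets (100%) had an adjusted p of at most 0.05. Of them, 931 (67.4%) were higher in Stat3 d/d. A granzyme in the table therefore had to differ, and its pass is a description rather than a result. Intensities ran between 2.47 and 4352. Stat3 read 121, 101 and 131 in Stat3 d/d arrays and 262, 356 and 243 in Stat3 f/f arrays on its brighter probe set, with no overlap. Its position against the deleted exons was not examined. Nothing in the labels ties the arrays to separate animals, so the p-values cover the spread of these samples only, some of which may be technical. The number of arrays limits the precision. The SE of each gene's change is limma's moderated one, with a variance drawn toward that of the 1382 selected probe sets. As the groups overlap in none of these, such SEs and p-values can be too small, by an amount that was not tested. The SEs of differences between 2 granzyme genes are not moderated.

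All 5 granzyme genes rose in Stat3 d/d uteri, by all 7 probe sets, where 66.9% of the 987 genes in the table were called higher. Gzmb showed the largest rise of the 5 and Gzmf the smallest. The median log2 change was 1.21 over the granzyme genes and 0.70 over all genes of the table. Without Stat3 d/d replicate 1 the granzyme median was 0.79, and after quantile normalization and median centring it was 0.81 and 0.75, with all genes at 0.24 and 0.23. A positive log2 change means higher in Stat3 d/d, and changes were taken on log2(intensity + 1), which understates the change of dim probe sets. In whole-tissue RNA, more cells of a type and more RNA per cell cannot be told apart.

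Gzmb, the caspase-activating granzyme, read 153, 110 and 76.8 in Stat3 d/d replicates 1, 2 and 3, against 28.7, 27.1 and 9.04 in Stat3 f/f replicates 1, 2 and 4. Even the lowest Stat3 d/d array was 2.67-fold above the highest Stat3 f/f array, and Stat3 f/f replicate 4 stood well below the other two arrays of its group. The means were 113 ± 38.4 in Stat3 d/d and 21.6 ± 10.9 in Stat3 f/f (SD, n = 3 arrays each), a ratio of 5.24. The log2 change was 2.44 (SE 0.39, adjusted p = 0.000429 in limma), which ranked 32 of 987 genes by size of rise. Without Stat3 f/f replicate 4 it was 1.93.

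Gzma, the tryptase-like granzyme, read 88.7, 77.6 and 63.9 in Stat3 d/d, against 36.9, 41.0 and 20.5 in Stat3 f/f, in the same array order. The arrays fell in the same order as for Gzmb within Stat3 d/d, and Stat3 f/f replicate 4 was again the lowest. Its means were 76.8 ± 12.4 in Stat3 d/d and 32.8 ± 10.8 in Stat3 f/f (SD, n = 3 each), a ratio of 2.34. The log2 change was 1.25 (SE 0.25, adjusted p = 0.0015 in limma). It was 0.82 (adjusted p = 0.016) after quantile normalization and 0.78 (adjusted p = 0.0206) after median centring. On the log2 scale Gzma and Gzmb had a Pearson r of 0.996 across the 6 arrays, a description that holds the group difference itself as well as any shared array effect.

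The uterine NK-typical granzymes were dim. Their Stat3 f/f means lay among the lowest of the table: 2.39% of probe sets had a Stat3 f/f mean at or below that of Gzmc, 1.81% at or below that of Gzmf and 0.145% at or below that of Gzmd. The deposited values carry no detection calls, so whether these transcripts were above background in Stat3 f/f was not tested.

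Gzmc read 18.5, 7.89 and 6.40 in Stat3 d/d replicates 1, 2 and 3, against 3.58, 4.36 and 3.19 in Stat3 f/f. Replicate 1 of Stat3 d/d was far above the rest, and the lowest Stat3 d/d array was 1.47-fold above the highest Stat3 f/f array. The means were 10.9 ± 6.61 in Stat3 d/d and 3.71 ± 0.60 in Stat3 f/f (SD, n = 3), a ratio of 2.95 that became 1.93 without Stat3 d/d replicate 1. The log2 change was 1.21 (SE 0.31, adjusted p = 0.00433 in limma), and 0.79 without that array. After centring each array on its median the change was 0.75 (adjusted p = 0.0541 in limma), which did not pass.

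Gzmd was read by 2 probe sets of its own. On the one that stands for the gene, whose suffix marks probes shared with other transcripts, it read 9.86, 6.87 and 4.46 in Stat3 d/d and 3.05, 2.88 and 2.61 in Stat3 f/f. The other gave 6.10, 9.10 and 4.93 in Stat3 d/d, with replicate 2 the highest, and 3.14, 2.74 and 2.67 in Stat3 f/f. Both had Stat3 d/d replicate 3 as the lowest of its group, and their log2 changes were 1.01 (SE 0.24) and 0.97 (SE 0.21). The adjusted p was 0.00272 for the first in limma, and 0.0581 after median centring, where the change was 0.55. The probe set annotated to both Gzme and Gzmd read 5.35, 4.82 and 5.20 in Stat3 d/d and 3.51, 3.33 and 3.30 in Stat3 f/f, a log2 change of 0.48 (SE 0.16). It cannot be given to either gene, and how far these probe sets read near-identical members of the cluster was not tested.

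Gzmf, the least changed, read 7.07, 5.15 and 5.71 in Stat3 d/d and 3.26, 3.81 and 3.62 in Stat3 f/f. The groups did not overlap, but the lowest Stat3 d/d array was 1.35-fold above the highest Stat3 f/f array. Its log2 change of 0.60 (SE 0.17, adjusted p = 0.0065 in limma) was below the median of all genes of the table. The call was lost after quantile normalization (0.21, adjusted p = 0.307) and after median centring (0.14, adjusted p = 0.477), scalings under which the median change of all probe sets was 0.25 and 0.24 in place of 0.70.

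**Figure D1:**
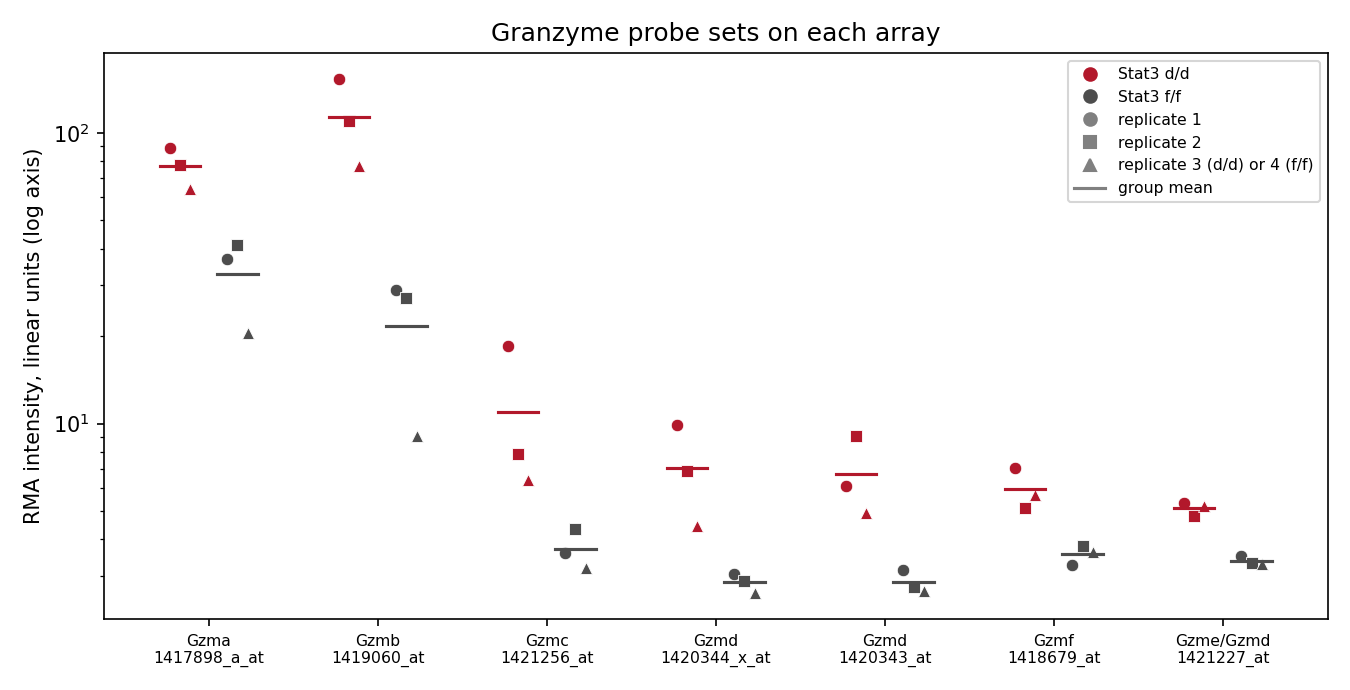
RMA intensity (log axis) of the 7 granzyme probe sets on each of the 3 Stat3 d/d arrays (red) and 3 Stat3 f/f arrays (grey), with points for arrays and lines for group means. Gzma and Gzmb lie between 63.9 and 153 in Stat3 d/d and between 9.04 and 41.0 in Stat3 f/f, while the Gzmc, Gzmd and Gzmf points of Stat3 f/f all lie between 2.61 and 4.36.

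The next comparison set the general cytotoxic granzymes against the uterine NK-typical ones. The mean log2 change was 1.84 for Gzma and Gzmb together and 0.94 for Gzmc, Gzmd and Gzmf, a difference of 0.90 between the changes. As the Stat3 f/f values of Gzmc, Gzmd and Gzmf (2.61 to 4.36) lie near the lowest intensity of the table (2.47), their changes can be understated and the difference overstated, by an amount that was not tested. Relative to the Stat3 f/f mean of each gene, the general minus uterine NK-typical value was 0.73, 1.06 and 0.89 in Stat3 d/d replicates 1, 2 and 3, and 0.40, 0.32 and -0.73 in Stat3 f/f replicates 1, 2 and 4. The groups did not overlap, and Stat3 f/f replicate 4 lay furthest out. Without that array the difference was 0.53, and with no pseudocount 0.76. No p is given for a mean over chosen genes.

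Over the 10 pairs of granzyme genes, the gap was widest where Gzmb was one of the pair. Taking the difference of log2 values of 2 genes within each array, the change of Gzmb exceeded that of Gzma by 1.19 (SE 0.27), that of Gzmc by 1.22 (SE 0.48), that of Gzmd by 1.42 (SE 0.46) and that of Gzmf by 1.83 (SE 0.57). In each of these 4 pairs the groups were apart in all arrays, as they were with no pseudocount (1.10 to 1.77). The 3 differences from Gzmc, Gzmd and Gzmf carry the same limit of dim Stat3 f/f values. Gzma and Gzmc changed by amounts that differed by 0.03 (SE 0.38), and Gzma and Gzmd by 0.23 (SE 0.30), with overlapping arrays. Gzma exceeded Gzmf by 0.64 (SE 0.33) with the groups apart, but they overlapped with no pseudocount (0.54, SE 0.34). The two-sided exact permutation test over arrays cannot go below p = 0.10 with 3 against 3. It gave 0.10 for the 5 pairs whose groups were apart (adjusted p = 0.20 over the 10 pairs), so no pair passed. With errors of this size, the small differences of Gzma from Gzmc and Gzmd do not show that these genes changed alike.

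**Figure D2:**
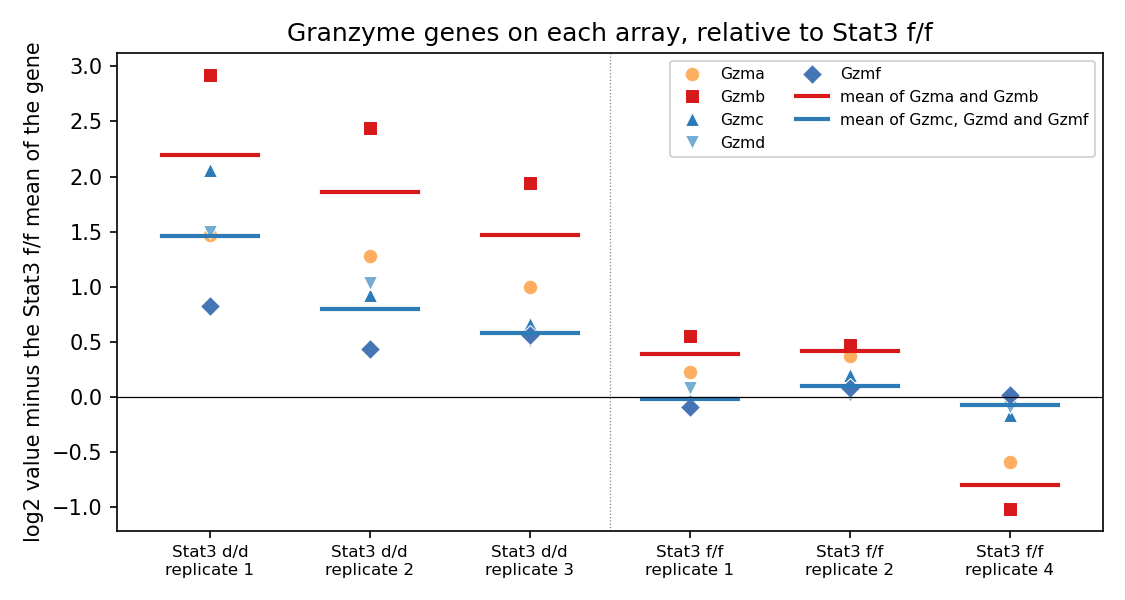
Log2 value of each granzyme gene on each array minus its Stat3 f/f mean, with bars for the mean of Gzma and Gzmb (red) and of Gzmc, Gzmd and Gzmf (blue). Gzmb is the highest point on each Stat3 d/d array, and on Stat3 f/f replicate 4 the bar of Gzma and Gzmb lies 0.73 below that of the other 3 genes.

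A list of granule genes and of other genes of target cell killing and its control was set beside the granzymes. Of 23 genes of granule content, release and granzyme control, 4 were in the table under a single symbol, and Gzme only together with Gzmd. All 4 rose, where 66.9% of all genes of the table were higher. Their log2 changes had a median of 0.85, against 0.70 over all genes. Nkg7, a granule membrane protein needed for cytotoxic degranulation, read 91.9, 90.9 and 52.4 in Stat3 d/d and 23.8, 26.4 and 13.3 in Stat3 f/f, a log2 change of 1.85 (SE 0.29). Ctsw, a cathepsin of cytotoxic lymphocytes, rose by 1.08 (SE 0.19). Serpinb9, which encodes an intracellular inhibitor of granzyme B, rose by 0.62 (SE 0.18), and Fasl, the death ligand that kills by a granule-independent route, by 0.49 (SE 0.18). After either scaling, median centring or quantile normalization, 2 of these 4 passed, as did 873 and 887 of all 1382 probe sets. Perforin (Prf1), serglycin (Srgn) and the granzyme-activating protease gene Ctsc, and the granzymes Gzmk and Gzmm, were not in the table and so were not analysed here.

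NK cell genes rose beside the granzymes. Of 35 such genes 13 were in the table under a single symbol. Klra3 and Klrb1c were there only on probe sets shared with other genes (log2 changes of 3.61 and 0.67) and are not counted. All 13 rose, between 0.63 and 3.52 on the log2 scale, where 66.9% of all genes of the table were higher. The 6 with the smallest adjusted p were the Ly49 receptor genes Klra8 (3.52, SE 0.25) and Klra7 (2.83, SE 0.23), the receptor chain gene Klrd1 (2.20, SE 0.20), the lymphocyte transcription factor Eomes (1.40, SE 0.20), the NK-supporting cytokine Il15 (1.12, SE 0.16) and the interleukin-2 and interleukin-15 receptor chain gene Il2rb (1.36, SE 0.20). A second, dimmer probe set of Eomes changed by 0.90 (SE 0.19). Klra8 and Klra7 were read by probe sets whose suffix marks probes shared with other transcripts. Their Stat3 f/f means, 4.27 and 3.67, were near the lowest intensity of the table (2.47). The summed intensity of the 13 was 441 to 662 in Stat3 d/d and 148 to 211 in Stat3 f/f. Fcer1g, which myeloid and mast cells also express, made up much of it, and without it the sums were 298 to 424 in Stat3 d/d and 97.2 to 112 in Stat3 f/f. Both sums include the supporting cytokine gene Il15, and neither is a measure of NK cell number. Of 9 T cell markers, which could mark another granzyme source, 2 were in the table and moved in opposite directions: Cd3g rose to 17.9, 10.6 and 6.31 in Stat3 d/d, against 4.2, 4.66 and 3.51 in Stat3 f/f, and Thy1 fell by 0.76 (SE 0.20). Their summed level was 246 to 308 in Stat3 d/d and 353 to 553 in Stat3 f/f, most of it Thy1. The sum follows Thy1 and not Cd3g, so it is no measure of T cell content, and whether T cells changed was not tested. None of 8 mast cell and 6 neutrophil markers was in the table, and no marker in it was at 0. Of markers of the uterus itself, the table held the stromal genes Pgr and Dcn, both lower in Stat3 d/d, and none of the 6 epithelial ones, so the tissue label could not be checked further.

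The pan-leukocyte, macrophage and dendritic cell markers in the table were also higher, where 66.9% of all genes of the table were higher. All 3 pan-leukocyte markers rose, Ptprc (CD45) by 1.61 (SE 0.24), Cd52 by 1.64 (SE 0.31) and the actin regulator Coro1a by 0.95 (SE 0.23), and their summed intensity was 636 to 1133 in Stat3 d/d and 209 to 361 in Stat3 f/f. All 5 macrophage and dendritic cell markers in the table, of 10, rose as well, with a summed level of 684 to 1489 in Stat3 d/d and 265 to 398 in Stat3 f/f. Array order was compared within each group. Stat3 d/d replicate 1 was the highest of its group for 6 of 7 granzyme probe sets, 3 of 3 pan-leukocyte, 5 of 5 macrophage and dendritic cell, 8 of 13 NK cell and 2 of 4 granule genes, and for 272 of the 660 genes that were higher in Stat3 d/d. Stat3 f/f replicate 4 was the lowest of its group for 6 of 7 granzyme probe sets, 3 of 3 pan-leukocyte, 2 of 5 macrophage and dendritic cell, 11 of 13 NK cell and 2 of 4 granule genes, and for 271 of those 660.

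Set against the mean of the 3 pan-leukocyte markers on the same array, a comparison added after the data were seen, the change of Gzmb was the larger one, while Gzma and Gzmc had overlapping groups. The markers changed by 1.40 (SE 0.33) on average. The change of Gzmb exceeded this by 1.03 (SE 0.28), with the groups apart in all arrays, and by 1.09 with no pseudocount. Gzma differed from it by -0.15 (SE 0.13) and Gzmc by -0.19 (SE 0.29), with overlapping arrays. Gzmd and Gzmf differed from the markers by -0.39 (SE 0.20) and -0.80 (SE 0.31) with the groups apart, but with no pseudocount the groups overlapped for both (-0.17 and -0.67). The exact permutation p was 0.10 for Gzmb, Gzmd and Gzmf, the smallest that 3 against 3 allows, and 0.17 after adjustment over the 5 genes. These differences compare changes in whole-tissue RNA, and the part of leukocyte number in the granzyme changes was not tested.

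**Figure D3:**
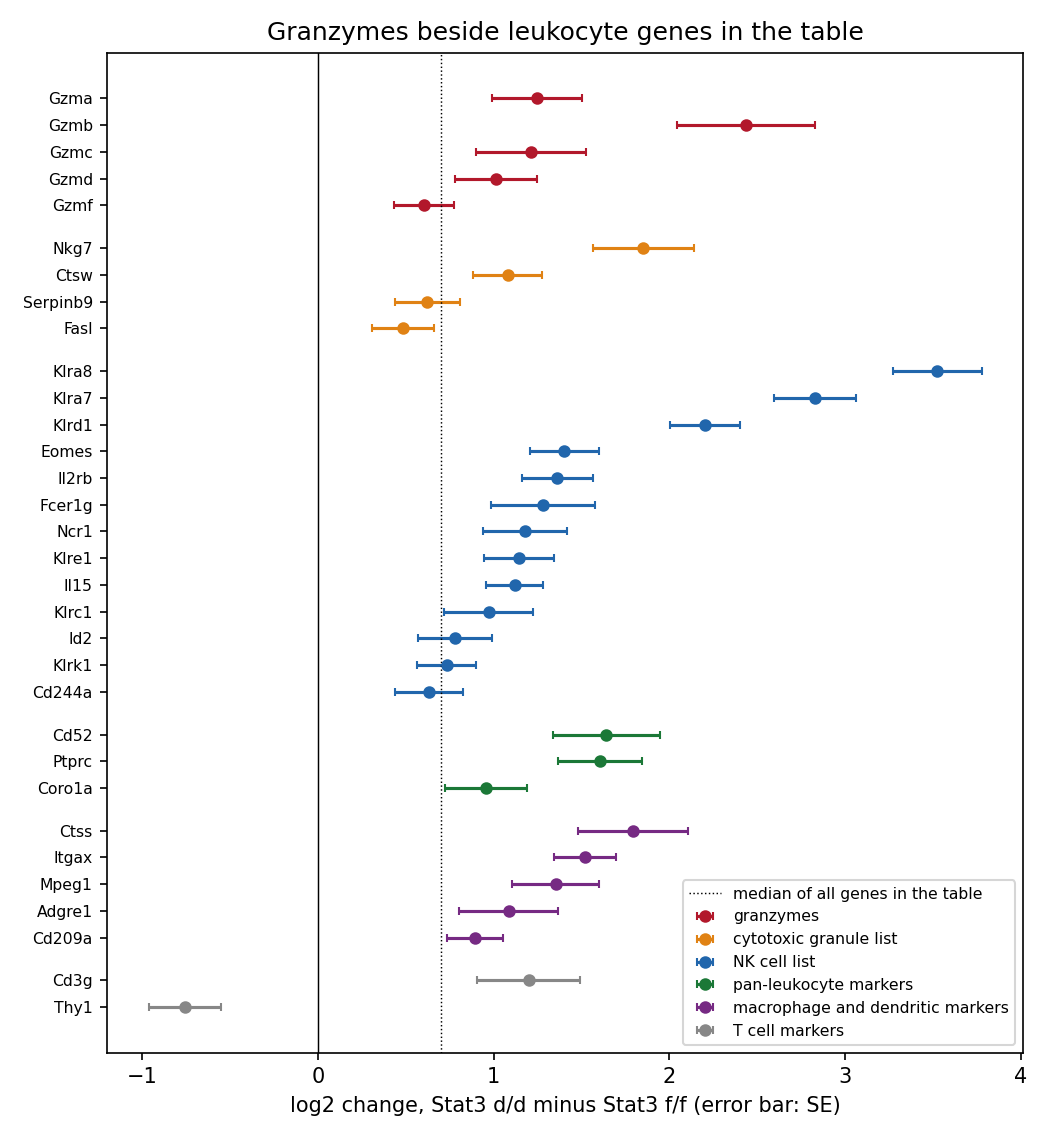
Log2 change (Stat3 d/d minus Stat3 f/f, n = 3 arrays each) of the 5 granzyme genes, with error bars for limma's moderated SE. Beside them is each single-symbol gene of the table in the cytotoxic granule, NK cell, pan-leukocyte, macrophage and dendritic cell and T cell lists. The dotted line is the median of all genes in the table (0.70). Gzmb, at 2.44, lies above the pan-leukocyte markers and Gzmf, at 0.60, below them.

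The genes whose array profile was most like that of each granzyme were found by Pearson r of log2 values over the 6 arrays among 982 other genes of the table. All of these genes were selected to differ between the groups, so high values are the rule. For Gzmb they were the Fc receptor gene Fcgr2b (0.992), the platelet and leukocyte protein gene Plek (0.992) and the chemokine gene Ccl9 (0.991). For Gzma they were the thyroxine carrier gene Ttr (0.996), the matrix protein gene Spon1 (0.99) and Tmem100 (0.988). Gzmd was closest to Ncr1 (0.995), the gene of the NK activating receptor NKp46, then to the proton-sensing receptor gene Gpr65 (0.994) and the chemokine gene Ccl5 (0.993), which rose by 1.85 (SE 0.30). These Gzmd values rest only on its probe set with shared probes. The other Gzmd probe set was highest on Stat3 d/d replicate 2, and Ncr1 on replicate 1, so the likeness may not hold for it. Gzmc was closest to Shisa3 (0.988), the lysozyme gene Lyz1 (0.987) and the chemokine receptor gene Cxcr3 (0.985), and Gzmf to Nosip (0.99), Kdm5b (0.989) and Zfp882 (0.988). Among the granzymes, with Gzmd again on the probe set with shared probes, r was 0.903 to 0.967 within Gzmc, Gzmd and Gzmf. Between these and Gzma or Gzmb it was 0.852 to 0.915.

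A stricter reading treats the table as the remainder of a whole array of 45000 tests. Under that assumption 37.5% of the probe sets in the table passed, 28% as higher in Stat3 d/d, and 2 of the 7 granzyme probe sets did, those of Gzmb (adjusted p = 0.014 in limma) and Gzma (adjusted p = 0.0488). Gzmd (0.0886), Gzmc (0.141) and Gzmf (0.212) did not. Of the NK cell genes 8 of 13 passed, and of the granule genes 2 of 4. Only the number of tests differed from the main fit here. The p-values still rest on variances drawn toward those of the selected table, so the selection itself is not corrected.

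**Figure D4:**
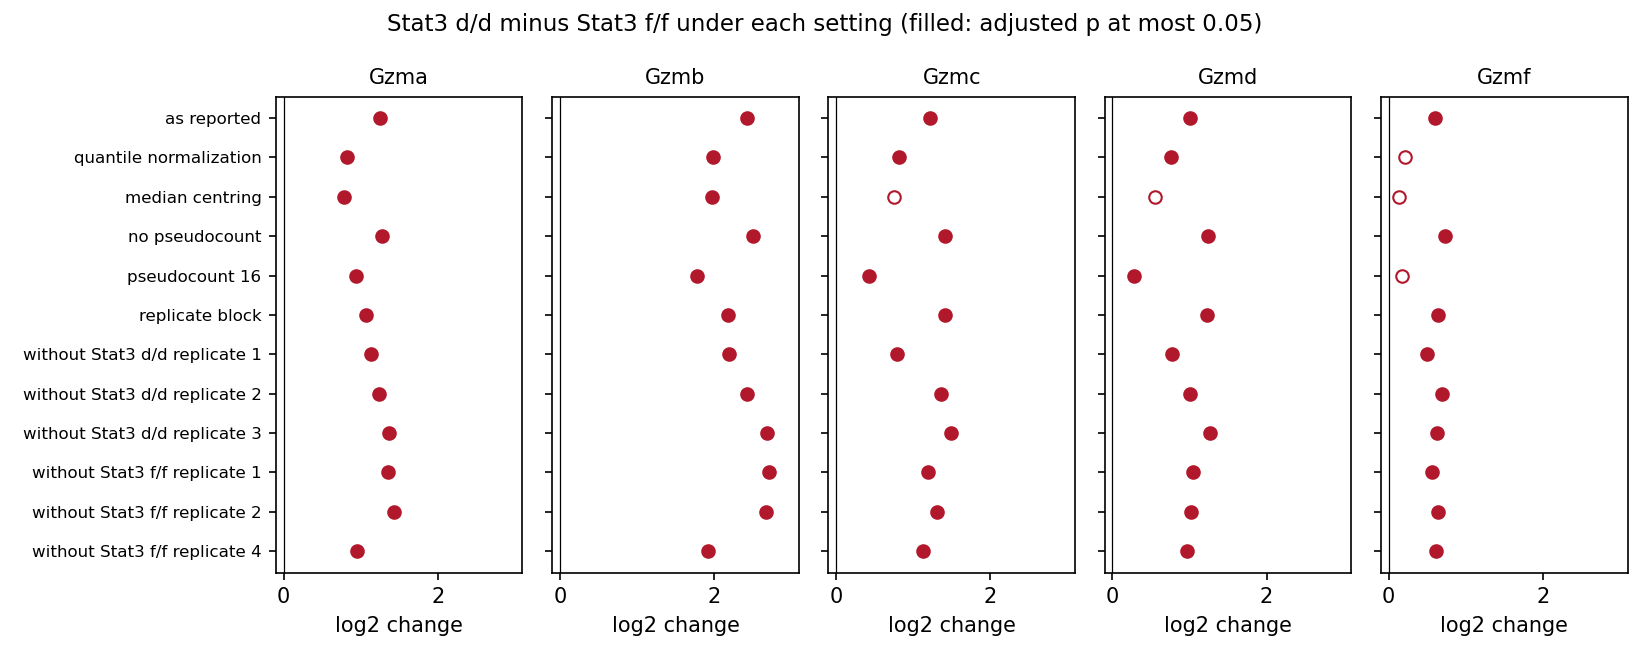
Log2 change (Stat3 d/d minus Stat3 f/f) of each granzyme gene under each setting on the horizontal axis, with filled points where limma gave an adjusted p of at most 0.05. Gzma and Gzmb are filled throughout, Gzmc and Gzmd are open after median centring, and Gzmf is open after both scalings and with a pseudocount of 16.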

How the data were processed

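Uterine RNA from 3 Stat3 d/d and 3 Stat3 f/f samples was hybridised to Affymetrix arrays, per the labels. Groups come from the source names and replicate numbers from the titles. The deposited intensities, 1 per probe set and array, are linear, and the submitters' processing notes name RMA, with no version. How RMA's log2 values were returned to a linear scale and how the 1382 probe sets were selected, as well as the genome build, is not given in the sources used here. A gene that the table lacks may have differed or not.

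Probe sets were named through the platform annotation (1191 with 1 symbol, 57 with several, 134 unnamed here), and all granzyme identifiers matched RefSeq. A gene with several probe sets was represented by its brightest, by the mean of the 6 arrays. Values were taken as log2(intensity + 1) and tested by limma 3.58.1 in R 4.3.3 (lmFit, eBayes, no covariate) over all 1382 probe sets, at an adjusted p of 0.05. The fit was tested on simulated data. The plan for log2 or linear values held for the unit found. Promoter sequences are from RefSeq (GRCm38.p6) and were aligned with Biopython 1.88. The motifs were chosen with the sequences in view. Figures were drawn with matplotlib 3.10.9.

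The members and gene lists were chosen with earlier results of these data known. Named genes are the granzymes, Stat3, the granule list members in the table, the 6 NK cell genes with the smallest adjusted p, the 3 closest profiles per granzyme, and the marker genes in the table on which a result turns. Alternatives were quantile normalization, median centring, other pseudocounts, a filter on dim probe sets, a variance trend, leaving out each array, the replicate block, 45000 assumed tests and the mean over probe sets.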

Additional observations from a re-analysis of the deposited data

How the results depend on the processing

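Gzma and Gzmb kept their direction and passed under every setting run, with log2 changes of 0.78 to 1.43 and 1.78 to 2.71. Gzmc, Gzmd and Gzmf kept their direction but not their calls. After median centring Gzmc was at 0.75 (adjusted p = 0.0541), Gzmd at 0.55 (0.0581) and Gzmf at 0.14 (0.477), in limma. After quantile normalization Gzmf was at 0.21 (0.307), and with a pseudocount of 16 at 0.17 (0.0636). With 45000 assumed tests these 3, at 1.21, 1.01 and 0.60, did not pass either. The number of granzyme probe sets past the threshold was 7, and 2 after median centring, with 45000 assumed tests and without the dimmest 25% of probe sets, which holds the other 5 probe sets. It was 5 after quantile normalization and with a pseudocount of 16, and 6 with the replicate block. For all probe sets the count of 1382 became 887 after quantile normalization, 873 after median centring and 518 with 45000 assumed tests. It was 1317 with a pseudocount of 16 and 1036 without dim probe sets. The granule list count of 4 was 2 after quantile normalization, after median centring and with 45000 assumed tests. It was 3 with a pseudocount of 16, without dim probe sets and with the replicate block. The NK cell list count of 13 was 10 after quantile normalization, 9 after median centring and 12 with a pseudocount of 16. It was 8 with 45000 assumed tests and 7 without dim probe sets. The median granzyme change of 1.21 was 0.81 after quantile normalization, 0.75 after median centring and 0.42 with a pseudocount of 16. Median centring subtracts 1 amount from every change, and a larger pseudocount shrinks dim changes, by construction. Quantile normalization gives every array the same distribution of values, here in a table with 67.4% of probe sets higher in Stat3 d/d. Otherwise the cause was not tested.

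Leaving out each array in turn gave 0.95 to 1.43 for Gzma, 1.93 to 2.71 for Gzmb, 0.79 to 1.49 for Gzmc, 0.77 to 1.27 for Gzmd and 0.50 to 0.69 for Gzmf, all with an adjusted p of at most 0.0293 in limma. The median granzyme change ranged between 0.79 (without Stat3 d/d replicate 1) and 1.37, and the difference between general and uterine NK-typical granzymes between 0.53 (without Stat3 f/f replicate 4) and 1.10. With 1 array left out, 1347 to 1377 of all 1382 probe sets passed. The groups overlap in no probe set of the table, so leaving out an array cannot reverse a direction. Replicate numbers 1 and 2 occur in both groups, but same-numbered arrays did not deviate together (r = 0.09 and 0.03 over the table). Replicate 3 is only in Stat3 d/d and replicate 4 only in Stat3 f/f. The replicate block therefore estimates each change from replicates 1 and 2 alone. With it, 6 of the 7 granzyme probe sets and 1284 of all 1382 passed. Gzmb changed by 2.18 and Gzmf by 0.64, and the difference between general and uterine NK-typical granzymes was 0.53.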
